A study of Mus musculus with 9 samples.

Results

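TRIM (tripartite motif) proteins are a family of ubiquitin ligases, enzymes that attach ubiquitin to other proteins. Their genes were followed here in mouse brain after an intracerebral injection of lipopolysaccharide (LPS), which comes from the outer wall of gram-negative bacteria and signals through TLR4. Members were taken by name from the platform annotation, as every gene whose symbol is Trim followed by a number and an optional letter. This gave 51 TRIM genes of the 17097 genes analysed. Together they had 82 probe sets annotated to 1 symbol, and 20 of the 51 genes had more than 1. Where a gene had several, the one highest on average over the 9 arrays was read. A further 5 probe sets that the annotation gives to a TRIM gene and another symbol together were not used.

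Brains were taken 4 d after PBS, 1 d after LPS or 4 d after LPS, with 3 arrays for each of these 3 groups. All mice were male C57Bl/6J, a wild-type inbred strain, aged 10 to 12 weeks, and each received an intrastriatal injection of PBS (the vehicle) or of LPS. They were perfused with saline to clear blood from the vessels, and RNA came from a block of the injected hemisphere around the injection site. RNA of 3 mice was mixed for every array, and the SD given for a group is therefore one between mixed samples. The study names 1 d the induction phase and 4 d the resolution phase of the response. No PBS array of 1 d was analysed here, so an effect of surgery at that time cannot be told apart from that of LPS. Both comparisons with PBS use the same 3 PBS arrays. All levels are on the log2 scale, with array medians of 4.322 to 4.367, and correlations between arrays across probe sets lay between 0.98137 and 0.99396. A group mean of 3.49 or less was called background, a limit set by the brightest of 23 nonspecific control probe sets. None of the 13 neuron, 8 astrocyte or 7 oligodendrocyte markers checked against the labelled tissue lay at background in all 3 groups.

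Most TRIM proteins carry a RING domain, which recruits the ubiquitin-loaded enzyme, then B-box and coiled-coil domains, and a C-terminal domain that selects the target. In the largest class this last domain is a SPRY domain. Many RING and SPRY members are induced by interferons, bind viral components or feed the pathways of cytosolic RNA and DNA sensing. In the brain, other members are known for roles in neurons, from axon guidance to the turnover of neurofilament. One further class carries PHD and bromo domains and acts on chromatin.

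Of the 51 genes, 8 passed the test in at least 1 comparison and 43 in none. A gene was called at an adjusted p under 0.05 in limma and a fold change of at least 1.5. At 1 d after LPS, 7 TRIM genes were higher than after PBS, 13.7% of the family against 3.86% of all genes, and they were *Trim30a*, *Trim30d*, *Trim21*, *Trim47*, *Trim34a*, *Trim12c* and *Trim25*. Only *Trim59* was lower at 1 d, 1.96% of the family against 0.532% of all genes. At 4 d, 6 of the 7 were called higher again, all but *Trim25*, which is 11.8% of the family against 4.21% of all genes. At 4 d limma called 0 TRIM genes lower than after PBS (6 at an unadjusted p under 0.05), where 0.205% of all genes were called. All 7 genes that were higher belong to the class with RING and SPRY domains, of which 23 members were analysed. *Trim59* belongs to the class with a transmembrane segment, of which 2 were analysed. The median log2 change over all 51 genes was −0.04 at 1 d and −0.07 at 4 d, and over all 17097 genes it was −0.03 and −0.02. Thus the middle of the family lay near that of all genes, and the rises were those of a few members.

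Parts of the promoters of 5 of the 7 genes that were higher at 1 d are shown first, because those genes share a short motif. The RefSeq promoter table (GRCm38.p6) gives 300 bases for each transcription start, 250 before it and 50 from it on. It held 55 promoters of 41 members, and all 7 genes had one. The motif searched on both strands was GAAA, then any 2 bases, then GAAA, the core of the interferon-stimulated response element, a control element found in the promoters of many interferon-induced genes. On the other strand it reads with the letters TTTC. Capitals mark the match, and up to 40 bases on each side are shown, 5′ to 3′ on the strand of the gene.
*Trim21*, chr7:102565433-102565509, minus strand: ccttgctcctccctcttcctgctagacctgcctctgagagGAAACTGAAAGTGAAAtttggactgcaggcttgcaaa
*Trim34a*, chr7:104244427-104244506, plus strand: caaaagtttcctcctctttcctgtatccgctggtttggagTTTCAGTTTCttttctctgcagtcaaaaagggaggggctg
*Trim12c*, chr7:104353329-104353418, minus strand: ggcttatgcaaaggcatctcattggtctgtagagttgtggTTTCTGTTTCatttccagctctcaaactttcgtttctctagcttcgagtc
*Trim30a*, chr7:104465180-104465269, minus strand: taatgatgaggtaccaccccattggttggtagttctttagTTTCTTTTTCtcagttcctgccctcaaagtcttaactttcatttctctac
*Trim30d*, chr7:104507841-104507930, minus strand: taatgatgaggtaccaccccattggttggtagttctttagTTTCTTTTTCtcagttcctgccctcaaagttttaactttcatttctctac
*Trim21* held 2 matches that overlap, and the other 4 held 1 each. With the start base counted as 0, the matches began at 13 in *Trim21*, 10 in *Trim34a*, −29 in *Trim12c*, −36 in *Trim30a* and −41 in *Trim30d*. A second *Trim30a* promoter of the table, chr7:104446076-104446163 on the minus strand, held the same match from position 2. Of all 32851 promoters in the table, 3.44% held the motif. Among the 41 members, 8 genes had a match in at least 1 promoter, a count by gene that the share by promoter does not match. The 3 beside those shown are *Trim2*, *Trim5* and *Trim12a*, which were not called at either time. *Trim25* and *Trim47* were higher at 1 d and had no match in this window. The letters TTCNNNGAA, the core of the gamma-activated site, were found in 8.3% of promoters, in 4 members (*Trim15*, *Trim31*, *Trim45* and *Trim46*) and in 0 of the 7. A match in letters is a description of the sequence and not a measured binding site. The promoters of *Trim30a* and *Trim30d* were 90.8% identical when aligned, while the other pairs among these 5 genes lay between 48.2% and 54.9%.

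The first role list holds TRIM genes known for induction by interferon or for antiviral activity, and 10 of them were analysed. Of these, 6 were higher at 1 d and 5 at 4 d, 0 were lower than after PBS, and 3 fell between 1 d and 4 d. Over all genes 3.86% were higher at 1 d, 4.21% at 4 d, and 1.37% were lower at 4 d than at 1 d. The median log2 change of the 10 genes was 1.08 at 1 d and 0.99 at 4 d, beside −0.03 and −0.02 over all genes. *Trim30a* showed the largest change of the family. Its product restrains TLR signalling to NF-κB by promoting the loss of the adaptors TAB2 and TAB3. Its log2 values were 4.46, 4.52 and 4.81 on the 3 PBS arrays, 7.38, 7.63 and 7.58 on the arrays of 1 d and 6.22, 6.05 and 6.66 on those of 4 d. The 3 groups did not overlap, with the arrays of 1 d highest and those of PBS lowest. The group means were 4.60 ± 0.19 for PBS, 7.53 ± 0.13 for 1 d and 6.31 ± 0.31 for 4 d (SD over 3 arrays), and *Trim30a* rose 7.63-fold at 1 d (log2 change 2.93, standard error 0.16, adjusted p = 1.52e-05 in limma) and 3.28-fold at 4 d (log2 change 1.71, adjusted p = 0.000409). Its other probe set was called higher at both times too (adjusted p = 2.24e-05 and 0.000402), but its PBS mean of 3.40 lay at background, so its log2 changes of 3.15 and 2.0 are limited by it.

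**Figure D1:**
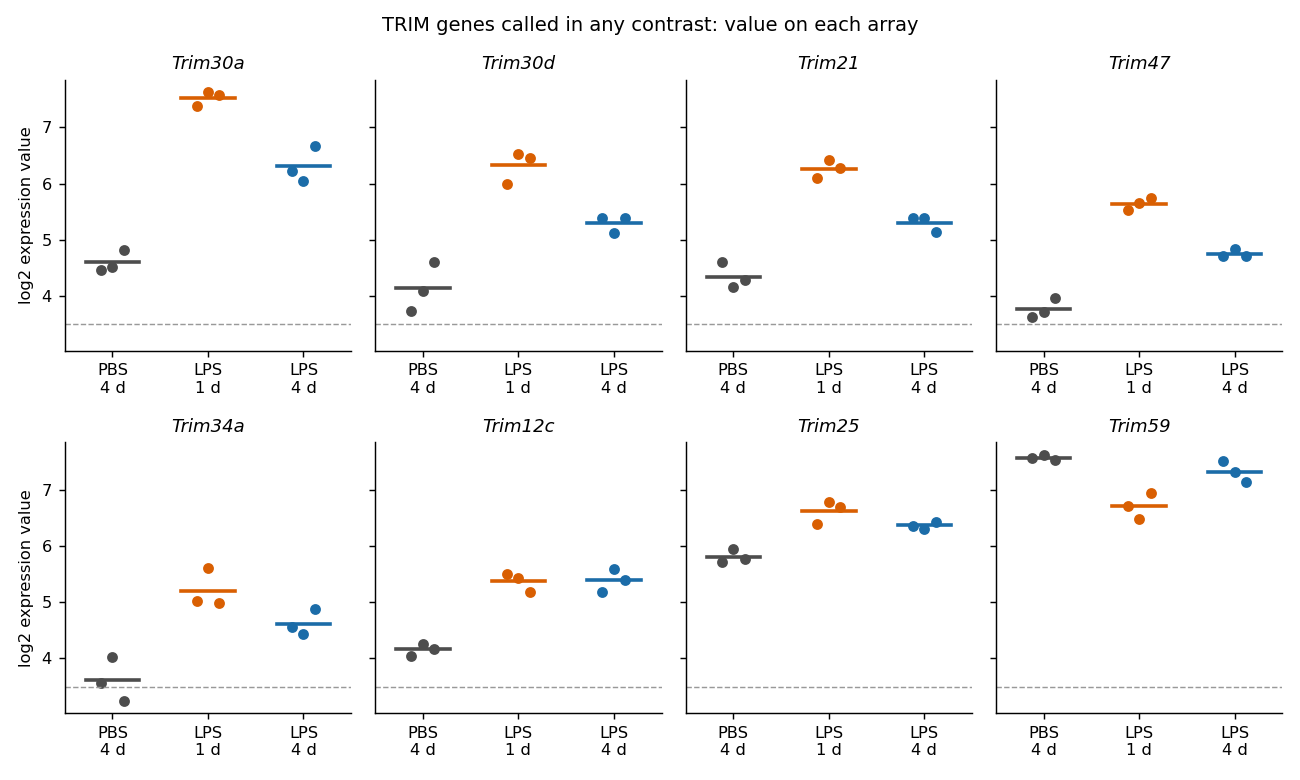
Log2 expression value (y axis) of the 8 called TRIM genes on each array, by group (x axis), with points for arrays, bars for group means (n = 3) and a dashed line at the background level of 3.49. In *Trim30a*, *Trim30d*, *Trim21*, *Trim47* and *Trim34a* the arrays of 1 d lie highest, those of *Trim12c* at 1 d and 4 d overlap, and *Trim59* is lowest at 1 d.

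*Trim30d* is a close copy of *Trim30a*, and binding of its transcripts by probes of the other copy could not be checked here, so the assignment of signal between the 2 is uncertain. *Trim30d* had log2 values of 3.72, 4.08 and 4.61 after PBS, 6.00, 6.53 and 6.46 at 1 d and 5.39, 5.11 and 5.38 at 4 d. As for *Trim30a*, the 3 groups were separate and 4 d lay between the others. It rose 4.57-fold at 1 d (log2 change 2.19, standard error 0.22, adjusted p = 0.00048) and 2.23-fold at 4 d (log2 change 1.15, standard error 0.22, adjusted p = 0.0221). The call at 4 d was lost without PBS replicate 1 (adjusted p = 0.0613) or 2 (0.0801) and without LPS 4 d replicate 1 (0.0874) or 3 (0.079). Its second probe set gave log2 changes of 2.41 at 1 d (adjusted p = 4.47e-05) and 1.17 at 4 d (adjusted p = 0.00427). The third, whose PBS mean of 2.92 lay at background, gave 2.34 and 1.30, which are limited by that level.

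*Trim21* encodes a cytosolic receptor for antibody-coated viruses, also known as the autoantigen Ro52. Log2 values of *Trim21* were 4.60, 4.15 and 4.28 after PBS, 6.10, 6.42 and 6.27 at 1 d and 5.39, 5.39 and 5.13 at 4 d, again without overlap and with 4 d in the middle. It rose 3.78-fold at 1 d (log2 change 1.92, standard error 0.14, adjusted p = 5.26e-05) and 1.94-fold at 4 d (log2 change 0.96, standard error 0.14, adjusted p = 0.00457). A dimmer probe set of *Trim21* had a mean of 4.11 at 1 d and lay at background after PBS (2.53) and at 4 d (3.04). It was called higher at 1 d (adjusted p = 0.000175), and its values at 4 d do not show whether the gene changed there.

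*Trim34a* is an interferon-induced gene next to *Trim5* whose PBS level lay close to background. It had log2 values of 3.56, 4.02 and 3.24 after PBS, 5.02, 5.61 and 4.98 at 1 d and 4.56, 4.43 and 4.88 at 4 d. All arrays after LPS lay above those after PBS, and the 1 d arrays above those of 4 d by a narrow margin. The rise was 3.02-fold at 1 d (log2 change 1.60, standard error 0.23, adjusted p = 0.00442) and 2.02-fold at 4 d (log2 change 1.02, standard error 0.23, adjusted p = 0.0473). The call at 4 d stood at the threshold and was lost when any 1 of 7 of the 9 arrays was left out, with adjusted p from 0.0644 to 0.147. It held without LPS 1 d replicate 2 and without PBS replicate 2. The copy *Trim34b* was not analysed here, and whether its transcripts add to the *Trim34a* signal could not be checked.

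*Trim12c* encodes a protein that works with TRAF6 upstream of interferon induction. Its log2 values were 4.05, 4.26 and 4.16 after PBS, 5.50, 5.44 and 5.19 at 1 d and 5.19, 5.60 and 5.40 at 4 d. The arrays of 1 d and 4 d overlapped, and both groups lay above PBS. It rose 2.33-fold at 1 d (log2 change 1.22, standard error 0.13, adjusted p = 0.000535) and 2.36-fold at 4 d (log2 change 1.24, standard error 0.13, adjusted p = 0.000586). The call rests on 1 probe set, because the other, at background in all groups, gave log2 changes of 0.16 and 0.10. Its neighbour *Trim12a* had log2 values of 2.84, 3.05 and 3.69 after PBS, 3.90, 4.27 and 4.21 at 1 d and 3.90, 3.42 and 4.40 at 4 d. Its log2 differences of 0.94 at 1 d (adjusted p = 0.12) and 0.72 at 4 d (adjusted p = 0.237) did not pass, and a second probe set at background gave −0.00 and −0.03. *Trim12a* and *Trim12c* are paralogs, so signal may be shared between them.

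*Trim25* ubiquitinates the RNA sensor RIG-I and can also attach ISG15, a ubiquitin-like protein induced by interferon. The arrays read 5.71, 5.95 and 5.78 after PBS, 6.40, 6.78 and 6.70 at 1 d and 6.36, 6.31 and 6.44 at 4 d. Both LPS groups lay above PBS and overlapped each other. It rose 1.75-fold at 1 d (log2 change 0.81, standard error 0.11, adjusted p = 0.0035). The difference at 4 d was 1.47-fold (log2 0.56, adjusted p = 0.0287), under the fold threshold.

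The other 3 genes of this list lay at background in all groups. *Trim14* encodes an adaptor of the mitochondrial protein MAVS that lacks a RING domain, and its mean log2 value was 2.35 for PBS, 2.82 for 1 d and 3.44 for 4 d, with a difference of 1.09 at 4 d (standard error 0.27, adjusted p = 0.064). *Trim5*, known for restricting retroviral capsids, had means of 1.84, 2.05 and 2.64 in the same order and a difference of 0.81 at 4 d (standard error 0.20, adjusted p = 0.0628). Both values are limited by background and neither was called. *Trim6*, which makes free ubiquitin chains that activate the kinase IKKε, differed by −0.12 at 1 d and −0.17 at 4 d.

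**Figure D2:**
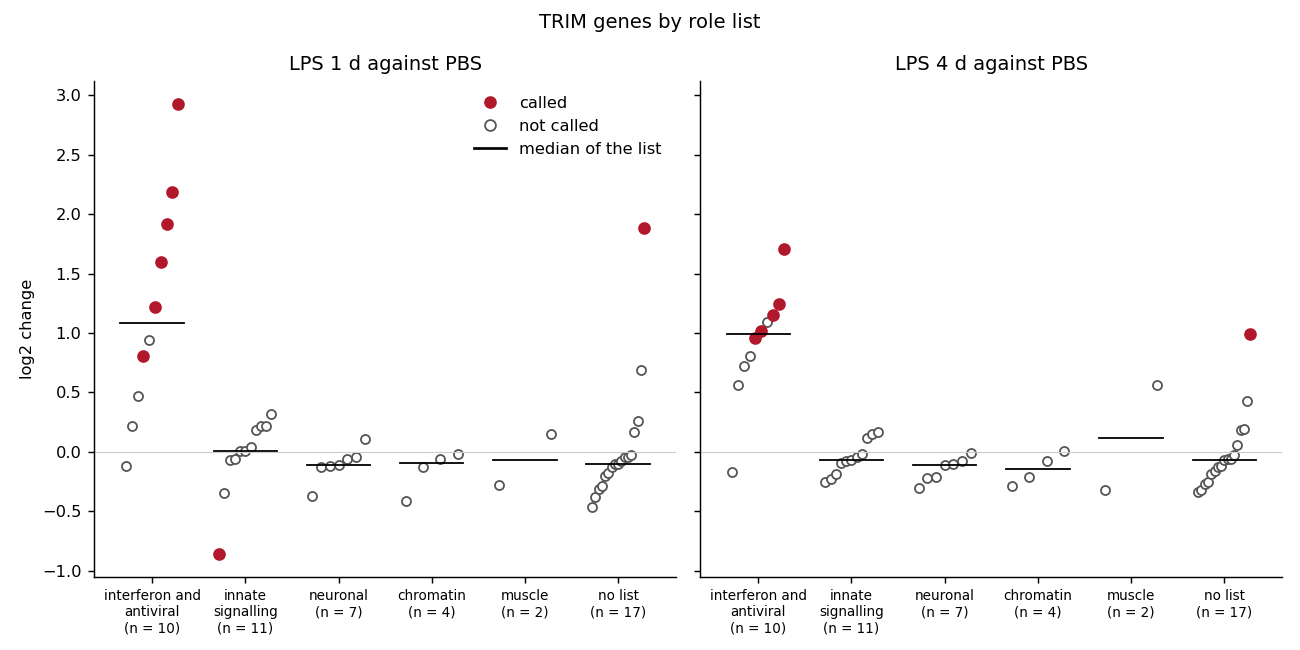
Log2 change against PBS (y axis) of the 51 TRIM genes at 1 d (left) and 4 d (right) after LPS, by role list (x axis), with filled points for called genes and bars for list medians. The called genes are 6 interferon and antiviral genes at 1 d and 5 at 4 d, *Trim59* among the innate signalling genes at 1 d and *Trim47* among the genes on no list.

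*Trim47* stood on none of the role lists, and its product has been described in the vascular endothelium of the brain. On the arrays its log2 value was 3.62, 3.71 and 3.96 after PBS, 5.52, 5.66 and 5.75 at 1 d and 4.71, 4.83 and 4.71 at 4 d. The groups did not overlap, and each spread over less than the gap to the next. It rose 3.69-fold at 1 d (log2 change 1.88, standard error 0.11, adjusted p = 1.65e-05) and 1.99-fold at 4 d (log2 change 0.99, standard error 0.11, adjusted p = 0.000787). The gene had 1 probe set, whose PBS mean of 3.76 lay close to the background level of 3.49. Beside *Trim47*, of 6 endothelial markers 1 was higher (*Cdh5*, log2 change 0.85) and 1 lower (*Slco1c1*, −0.82) at 1 d, and 2 were higher at 4 d (*Cdh5*, 0.62, and *Cldn5*, 0.86). The shares over all genes were 3.86% higher and 0.532% lower at 1 d, and 4.21% higher at 4 d. The summed linear level of the 6 markers ranged from 754 to 815 after PBS, 585 to 665 at 1 d and 961 to 1150 at 4 d. In this and the later sums the brightest probe sets weigh most, such as *Slco1c1* here and *Ttr* for the choroid plexus. For neutrophils at 1 d these are *S100a8* and *S100a9*. *Cdh5*, an adhesion protein of endothelial junctions, had means of 4.39, 5.24 and 5.01 in PBS, 1 d and 4 d, and the transporter *Slco1c1* had 8.72, 7.90 and 9.00. At 1 d *Cdh5* and the sum thus ran in different directions, while at 4 d both means and the sum lay above PBS. None of the 6 lay at background in all groups, and the part of endothelial cells in the *Trim47* values was not tested.

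The tissue holds many cell types, and in bulk RNA fewer cells of a type and less RNA per cell cannot be told apart. Most monocyte and macrophage markers were called higher at both times, and most neutrophil markers only at 1 d. Over all genes 3.86% were called higher at 1 d and 4.21% at 4 d. The neutrophil list had 12 markers, with 8 called higher at 1 d but 1 at 4 d, and summed linear levels of 117 to 199 after PBS, 1680 to 4530 at 1 d and 310 to 531 at 4 d. *Camp* and *Cd177*, both markers of neutrophils, lay at background in all groups. The list of monocytes and macrophages had 9 markers, with 7 called higher at each time, and sums of 299 to 350, 1430 to 1570 and 2020 to 3060, and 0 of them lay at background in all groups. Of 9 T and NK cell markers, 8 lay at background in all groups, among them *Cd3d*, *Cd3e* and *Cd3g*, which encode chains of the T cell receptor complex. Of 4 B cell markers 3 lay at background in all groups, and 1 was higher at 4 d (*Cd79b*, log2 change 1.45).

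Markers of resident cells and of neighbouring regions moved as well. The shares called over all genes were 3.86% higher and 0.532% lower at 1 d, and 4.21% and 0.205% at 4 d. Of 8 astrocyte markers 2 were higher at each time, *Gfap*, the intermediate filament of reactive astrocytes, with log2 changes of 2.83 and 2.50, and the water channel gene *Aqp4* with 0.65 and 0.88. The astrocyte sum was 5910 to 6310 after PBS, 6530 to 6570 at 1 d and 6830 to 7430 at 4 d. Of 9 genes of the cell cycle, 0 were called at 1 d and 6 were higher at 4 d. Of 13 neuron markers 1 was lower at 4 d (*Gad2*, −0.59). Regional markers were lower at 4 d in 2 of 8 genes of the hypothalamus and thalamus (*Pmch*, −3.60, and *Tcf7l2*, −1.05) and in 1 of 6 genes of the choroid plexus (*Otx2*, −1.17). Their sums were 1300 to 1990 and 3240 to 4510 after PBS, 1420 to 1980 and 3570 to 4970 at 1 d, and 529 to 1100 and 1560 to 3070 at 4 d, in that order of the lists. None of the astrocyte, neuron, regional or choroid plexus markers lay at background in all groups. The part of all these cell types and regions in the changes of the TRIM genes was not tested.

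The second role list holds TRIM genes known to regulate innate immune signalling beyond the interferon-induced ones, and 11 were analysed. Of these, 0 were higher and 1 was lower at 1 d, and limma called 0 in either direction at 4 d. Over all genes 3.86% were called higher and 0.532% lower at 1 d, and 4.21% and 0.205% at 4 d. *Trim59*, which encodes a membrane-anchored member, was the gene that fell. Its log2 values were 7.57, 7.62 and 7.53 after PBS, 6.71, 6.48 and 6.95 at 1 d and 7.52, 7.32 and 7.14 at 4 d. The arrays of 1 d were the lowest, and those of 4 d lay below PBS without reaching the level of 1 d. *Trim59* fell by 0.86 (log2) at 1 d (standard error 0.13, adjusted p = 0.00626), a 1.82-fold difference, and the difference at 4 d was −0.25 (adjusted p = 0.401). A second, dimmer probe set had means of 4.17, 3.01 and 3.31 in PBS, 1 d and 4 d and was called lower at both times (adjusted p = 0.00941 and 0.0432). Both LPS means lay at background, so its log2 changes of −1.16 and −0.86 are limited by that level. Beside it, of 9 microglial markers 3 were lower at 1 d (*Gpr34* by −2.46, *P2ry12* by −2.14 and *P2ry13* by −0.83 on the log2 scale) and 5 higher at 4 d. Summed on the linear scale, the 9 reached 874 to 919 on the PBS arrays, 588 to 845 at 1 d and 1880 to 2140 at 4 d, with none at background in all groups. Of 7 oligodendrocyte markers, 3 were lower at 1 d and 0 at 4 d. The myelin genes *Opalin*, *Ugt8a* and *Cnp* had log2 changes of −1.15, −0.92 and −0.63 at 1 d and differences of −0.01, −0.03 and 0.15 at 4 d. Their sum was 6350 to 6480 after PBS, 5360 to 5640 at 1 d and 5680 to 6420 at 4 d over the 7 genes, with none at background in all groups. The part of either cell type in the *Trim59* values was not tested.

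The other 10 genes of this list were called in no comparison, and 4 of them (*Trim8*, *Trim31*, *Trim40* and *Trim65*) lay at background in all groups. *Trim13*, anchored in the endoplasmic reticulum, had log2 means of 6.31, 5.96 and 6.21 in PBS, 1 d and 4 d, a difference of −0.35 at 1 d (adjusted p = 0.106). *Trim23*, which carries an ARF GTPase domain, had means of 8.06, 8.09 and 7.98. *Trim27*, *Trim39*, *Trim62* and *Trim68* differed from PBS by 0.18, 0.01, 0.22 and −0.07 at 1 d and by 0.12, −0.04, −0.02 and −0.19 at 4 d on the log2 scale. At background, *Trim31*, known for activating MAVS, differed by 0.32 and 0.15, and *Trim65*, known for activating MDA5, by 0.22 and 0.17. *Trim8* differed by 0.01 and −0.07, and *Trim40* by −0.06 and −0.23. In this list the median log2 change was 0.01 at 1 d and −0.07 at 4 d.

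The neuronal list had 7 genes and none was called at 1 d or 4 d, nor at an adjusted p alone. Over all genes 3.86% were called higher and 0.532% lower at 1 d, and 4.21% and 0.205% at 4 d. At those shares few of 7 genes would be called, so the lack of calls does not set this list apart. *Trim2*, which controls the turnover of neurofilament light chain, had log2 values of 10.70, 10.67 and 10.74 after PBS, 10.56, 10.59 and 10.63 at 1 d and 10.61, 10.58 and 10.61 at 4 d. Its arrays after LPS all lay below those after PBS, by a mean of 0.11 at 1 d (adjusted p = 0.49) and 0.10 at 4 d, which did not pass the test. *Trim9*, which acts with the netrin receptor DCC in axon branching, had means of 9.01, 8.97 and 9.00, and *Trim46*, which orders microtubules at the start of the axon, had 6.43, 6.31 and 6.32. *Trim3*, a brain-enriched relative of *Trim2*, had 8.28, 8.15 and 8.06, and *Trim32*, a regulator of neural progenitors, had 9.73, 9.67 and 9.52. *Trim36* had 5.36, 4.99 and 5.27. *Trim67*, the closest relative of *Trim9*, lay at background. The median log2 change of the 7 genes was −0.11 at both times.

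Among 4 genes of chromatin, *Trim24* differed by −0.41 at 1 d (7.11 ± 0.11 after PBS and 6.70 ± 0.07 at 1 d, SD, n = 3 arrays each, adjusted p = 0.0268), under the fold threshold. It encodes a coregulator of nuclear receptors that reads histone marks. Its 2 dimmer probe sets, at or near background, gave −0.19 and −0.06. *Trim28*, the corepressor KAP1 of zinc finger repressors, had means of 8.57, 8.55 and 8.58, with differences of −0.02 and 0.01. *Trim33*, a regulator of SMAD signalling, differed by −0.13 and −0.08, and *Trim66* by −0.06 and −0.29. Limma called 0 of the 4 in any comparison, and few of 4 would be called at the shares over all genes. Of the muscle genes, *Trim63* (the atrophy ligase MuRF1) lay at background with means of 1.97, 1.69 and 1.65, and *Trim54* had means of 3.36, 3.51 and 3.92, with a difference of 0.56 at 4 d (adjusted p = 0.294). Of 7 skeletal muscle markers, 6 lay at background in all groups.

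Of the genes on no list, *Trim16*, which lacks a RING domain, had the largest difference among those not called, 0.69 at 1 d (means 2.81 and 3.50, adjusted p = 0.105). It was called without LPS 1 d replicate 3 (log2 change 0.90, adjusted p = 0.0271), and its second probe set at background gave 0.00. *Trim44* and *Trim35* are among the 5 members with the highest deposited values, with *Trim2*, *Trim32* and *Trim9*. *Trim44* had means of 9.80, 9.72 and 9.74 and *Trim35* of 9.75, 9.65 and 9.69. Values of different probe sets depend on their probes and do not rank the genes. Over all 43 genes called in no comparison, the log2 difference from PBS lay between −0.46 and 0.94 at 1 d and between −0.34 and 1.09 at 4 d. Of the 51 genes, 17 lay at background in all 3 groups (33.3%, against 29.4% of all genes), and 34 lay above it in at least 1.

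**Figure D3:**
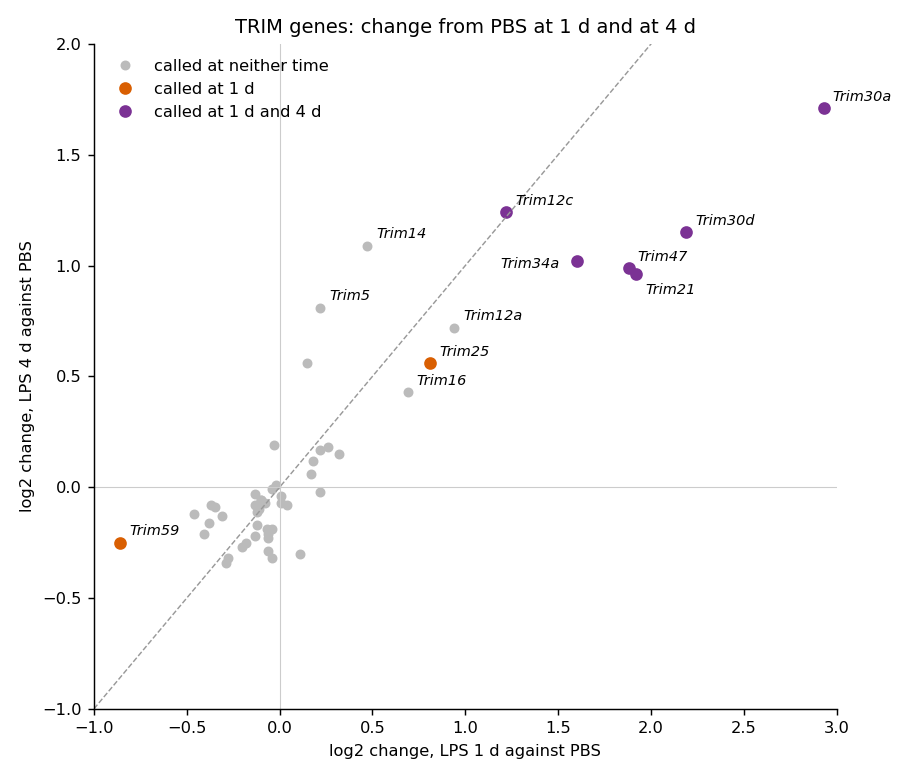
Log2 change of each TRIM gene at 1 d (x axis) and at 4 d (y axis) after LPS, both against the same 3 PBS arrays, with the dashed line at equal changes. *Trim30a*, *Trim30d*, *Trim21*, *Trim47* and *Trim34a* lie below the line, *Trim12c* on it, *Trim59* at the left, and most members lie near 0.

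The arrays of 4 d were also compared directly with those of 1 d. Limma called 4 TRIM genes lower at 4 d, which is 7.84% of the family against 1.37% of all genes. On the log2 scale *Trim30a* fell by 1.22 (standard error 0.16, adjusted p = 0.00488), *Trim21* fell by 0.96 (standard error 0.14, adjusted p = 0.00694) and *Trim47* fell by 0.89 (standard error 0.11, adjusted p = 0.0027). *Trim30d* fell by 1.04 (standard error 0.22, adjusted p = 0.0495), a call lost when any 1 of 6 arrays was left out, with adjusted p from 0.0833 to 0.173. These were LPS 1 d replicates 2 and 3, all 3 LPS 4 d replicates and PBS replicate 2. The second *Trim30d* probe set was called too, with a fall of 1.24 (adjusted p = 0.00488). The third fell by 1.03 (adjusted p = 0.146) and was not called. *Trim34a* (−0.58, adjusted p = 0.332) and *Trim25* (−0.25, adjusted p = 0.387) did not pass, and the difference for *Trim12c* was 0.02 (standard error 0.13, adjusted p = 0.967). Limma called 0 TRIM genes higher at 4 d than at 1 d (5 at an unadjusted p under 0.05), against 1.84% of all genes. *Trim59* came close, with a difference of 0.61 (adjusted p = 0.0524), and it passed without LPS 1 d replicate 3 (0.73, adjusted p = 0.0352). Across the 3 groups together, the F-test called 8 TRIM genes, 15.7% against 7.67% of all genes, and these were the 8 called in the single comparisons.

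Of the 51 members, 12 lie on chromosome 7, and 5 of these were higher at 1 d, beside 3.86% of all genes. In the RefSeq annotation 10 TRIM genes follow each other there, in the order *Trim6*, *Trim34a*, *Trim5*, *Trim12a*, *Trim34b*, *Trim12c*, *Trim30b*, *Trim30c*, *Trim30a* and *Trim30d*, with 1 other coding gene (*Gm38525*) among them. Of these, 7 could be analysed, and 4 were called higher at 1 d and 4 at 4 d (*Trim34a*, *Trim12c*, *Trim30a* and *Trim30d* at each time). Over all genes the shares were 3.86% and 4.21%. The run holds close copies whose signal may be shared (*Trim30a* with *Trim30d*, *Trim12a* with *Trim12c*), so its calls are not independent. Whether transcripts of the copies not analysed here (*Trim34b*, *Trim30b* and *Trim30c*) add to these signals could not be checked. *Trim6*, at one end of the run, differed by −0.12 and −0.17. *Trim21* lies on the same chromosome outside the run, and *Trim25* and *Trim47* lie on chromosome 11. The members as a whole are spread over 15 chromosomes.

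**Figure D4:**
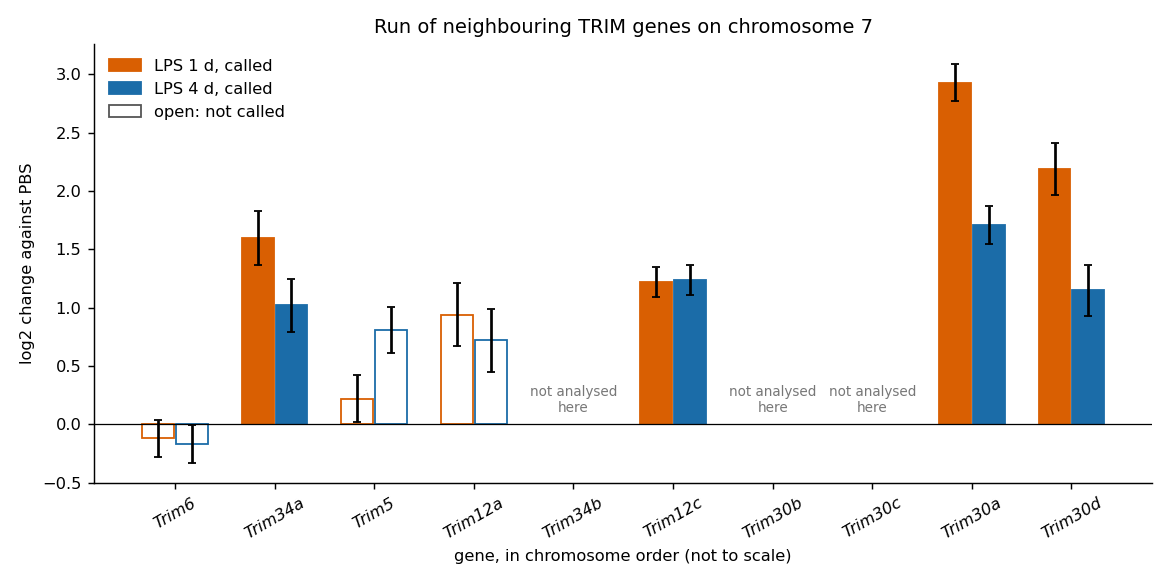
Log2 change against PBS (y axis; bars, with standard errors from limma) at 1 d and 4 d after LPS for the run of TRIM genes on chromosome 7, in gene order (x axis, not to scale), with open bars where a gene was not called. *Trim34a*, *Trim12c*, *Trim30a* and *Trim30d* were called at both times, *Trim5* and *Trim12a* at neither, and *Trim6* lies near 0.

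Some TRIM proteins carry other names, and 4 of their genes were read in the same fit. *Mefv* encodes pyrin, an inflammasome sensor of myeloid cells also known as TRIM20. Its log2 values were 3.19, 2.47 and 2.58 after PBS, 4.55, 5.67 and 4.59 at 1 d and 3.45, 2.23 and 2.92 at 4 d. It was above background only at 1 d, and was at least 2.73-fold higher there than after PBS (adjusted p = 0.0115) and than at 4 d (adjusted p = 0.023), both bounds set by the background level. *Pml*, the organiser of nuclear bodies and also TRIM19, differed by 0.60 at 1 d (adjusted p = 0.184) and 0.05 at 4 d. *Mid1* and *Mid2*, which bind microtubules, differed by 0.21 and −0.12 at 1 d and by 0.51 and −0.07 at 4 d, and none of the 3 was called.

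Partners of TRIM proteins were taken from a list of ubiquitin and ISG15 enzymes and of the sensors and kinases they act on, of which 30 were analysed. Of these, 11 were higher at 1 d, 6 at 4 d, 0 were lower than after PBS and 4 fell between 1 d and 4 d. Over all genes 3.86% were higher at 1 d, 4.21% at 4 d, and 1.37% were lower at 4 d than at 1 d. Among the 11 was *Ube2l6*, at background in all groups (means 1.96, 3.06 and 2.24), which limits its change at 1 d (adjusted p = 0.027). The median log2 change of the 30 genes was 0.09 at 1 d and 0.19 at 4 d. The genes of the RNA sensors RIG-I and MDA5 rose at 1 d. *Ddx58*, which encodes RIG-I, the target of TRIM25, had log2 values of 4.26, 4.55 and 4.43 after PBS, 6.09, 6.74 and 6.48 at 1 d and 5.48, 5.28 and 5.48 at 4 d. Its 3 groups did not overlap, and it rose 4.07-fold at 1 d (log2 change 2.02, standard error 0.16, adjusted p = 9.6e-05) and 2.01-fold at 4 d (log2 change 1.00, adjusted p = 0.00807). *Ifih1*, which encodes MDA5, the target of TRIM65, rose 4.13-fold at 1 d (log2 change 2.05, adjusted p = 0.00143) and differed by 1.03 at 4 d (adjusted p = 0.0589).

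The ISG15 pathway attaches a ubiquitin-like protein in steps parallel to those of ubiquitin. *Uba7*, its activating enzyme, was at background after PBS (mean 3.24) and at 4.78 at 1 d and 4.88 at 4 d, so at least 2.45-fold and 2.62-fold higher (adjusted p = 0.000431 and 0.000368). *Herc6*, the main ISG15 ligase of the mouse, was above background only at 1 d (mean 4.43, at least 1.92-fold, adjusted p = 0.00239). *Usp18*, which removes ISG15 and dampens interferon signalling, was at least 11-fold higher at 1 d (mean 6.95, adjusted p = 1.88e-05) and at least 1.96-fold higher at 4 d (mean 4.46, adjusted p = 0.00966). Between the times it fell by 2.49 (log2, adjusted p = 0.000749), as did *Irf7*, the interferon regulatory factor that amplifies the response, by 1.98 (adjusted p = 0.00881) and *Ddx58* by 1.02 (adjusted p = 0.011). *Herc6* was called lower at 4 d than at 1 d too (adjusted p = 0.00906), to a mean of 3.18 at background that limits the size of its fall. *Irf7* was at background after PBS and at least 6.92-fold higher at 1 d (mean 6.28, adjusted p = 0.000298).

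Other partners were higher at both times. *Ikbke*, which encodes IKKε, rose by 2.65 (log2) at 1 d (adjusted p = 0.000765) and 2.27 at 4 d (adjusted p = 0.00222). *Fcgr1*, the high-affinity receptor for IgG, whose Fc part TRIM21 also binds, rose by 1.96 and 1.55 (adjusted p = 0.00015 and 0.000769). *Sting1*, the adaptor of cytosolic DNA sensing, rose by 0.83 at 1 d (adjusted p = 0.0349) and 1.30 at 4 d (adjusted p = 0.00318). *Mavs*, *Traf6* and *Tab2* were not called, with log2 differences of 0.14, 0.02 and 0.02 at 1 d and 0.21, 0.02 and 0.23 at 4 d. The ubiquitin-conjugating enzymes *Ube2d3*, *Ube2n* and *Ube2k*, which serve many RING ligases, differed by 0.03, −0.11 and 0.01 at 1 d and by −0.01, −0.15 and −0.12 at 4 d. These 6 are named for their roles beside the members and were chosen after their values were seen.

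**Figure D5:**
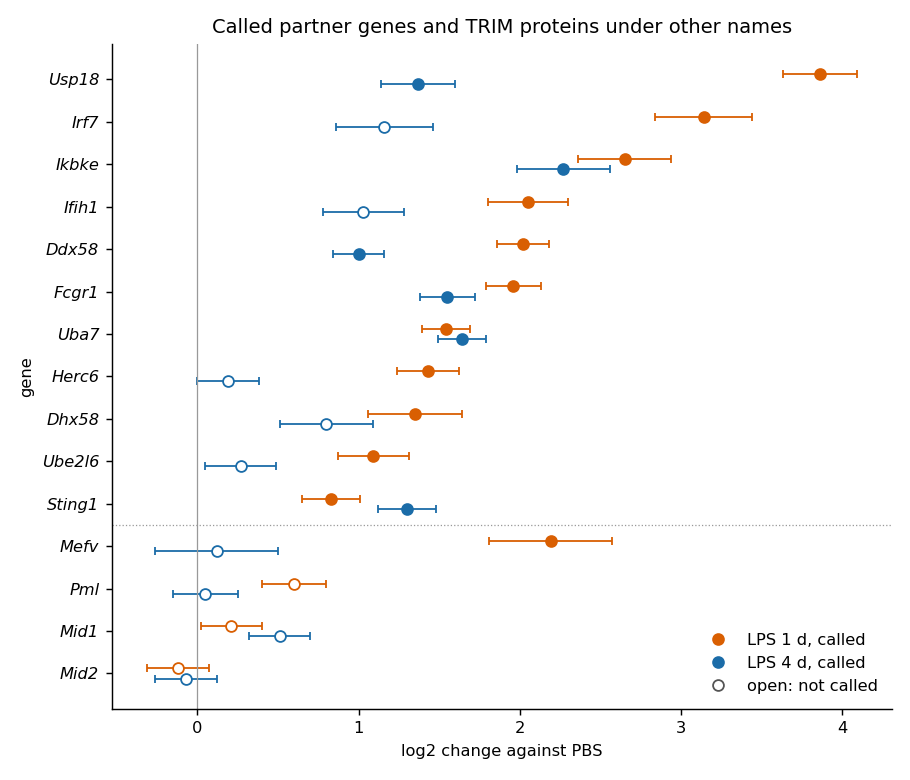
Log2 change against PBS (x axis, points with standard errors from limma) at 1 d and 4 d after LPS for the 11 called partner genes and, under the dotted line, the 4 TRIM genes with other names (y axis), with open points where a gene was not called. *Usp18*, *Irf7*, *Herc6* and *Ddx58* lie further right at 1 d than at 4 d, and *Uba7* and *Sting1* do not.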

How the data were processed

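RNA from 9 pools of mouse brain tissue (3 groups of 3, with 3 mice per pool) was measured on Affymetrix HT MG-430 PM arrays. The authors used RMA as run in Affymetrix Expression Console (per the labels, version not given in the sources used here), and deposited one log2 value for each probe set and array, which was not normalized again. RMA brings arrays to a common distribution, so a shift of all genes on an array is removed from these values. Probe sets were named from the platform annotation, and 104 control entries were left out.

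A linear model with a mean per group was fitted to all 45037 probe sets and 9 arrays with limma 3.58.1 in R 4.3.3 (empirical Bayes, 6 residual and 3.02 prior degrees of freedom), with Benjamini-Hochberg adjustment over all of them. The thresholds are those of the methods: adjusted p under 0.05, fold 1.5 or more. Counts over all genes use 1 probe set per gene, 17097 of the 28898 probe sets with 1 symbol. P values measure the spread between pools, and an exact permutation test of 3 against 3 arrays cannot give a p below 0.1. The number of arrays limits the precision.

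The family members, role lists, marker lists and motifs were chosen with earlier results of these data known. Genes were named where called, where on a role list, among the 5 largest uncalled changes or the 5 highest levels, as the 4 TRIM genes under other names, or as up to 5 called partners per comparison. Where every array of the dimmer group lay at or below background, the fold is the brighter mean over the background level of 3.49. The fit was tested on simulated data. Promoters came from RefSeq (GRCm38.p6), searched and aligned in Python 3.11.15 with Biopython 1.88. Protein sequences were not used here. Labels share replicate numbers between groups, but each pool comes from different mice. Alternatives were other moderation, thresholds, probe sets, filters and normalizations, a replicate block, and each array left out.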

Additional observations from a re-analysis of the deposited data

Results flagged for a closer look

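For 4 TRIM genes the change after LPS differed between 1 d and 4 d by limma's test of the difference itself. The log2 value at 4 d minus that at 1 d was −1.22 for *Trim30a*, −1.04 for *Trim30d*, −0.96 for *Trim21* and −0.89 for *Trim47*. In each gene all 3 arrays of 4 d lay below all 3 of 1 d. Because the genes were picked by this same comparison, that is no separate support. The arrays of *Trim34a*, which was not called, were separate in the same way. The call for *Trim30d* was lost when any 1 of 6 arrays was left out. *Trim30a* and *Trim30d* are close copies, so their values are not independent. Between the same times 5 of 12 neutrophil markers were called lower. Of 9 monocyte and macrophage markers 2 were lower and 2 higher, and of 9 microglial markers 8 were higher. Over all genes 1.37% were lower and 1.84% higher. The part of these cell types in the differences of the 4 TRIM genes was not tested.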

How the results depend on the processing

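The 18 called values were recomputed under 20 other settings, 360 values in all, of which 328 kept their direction and side of the threshold, 32 kept only the direction and 0 reversed. Under every setting 7 of the 18 kept their call. With a fold of at least 2, 0 genes were lower at 1 d and 2 fell from 1 d to 4 d, whereas with no fold threshold 2 were lower at 1 d. With an intensity trend and robust moderation, 13 genes differed across the groups and 1 was higher at 4 d than at 1 d, and leaving out dim probe sets also gave 1 there. With the probe set of lowest mean, 1 gene was lower at 4 d than after PBS (*Trim59*, with both LPS means of that probe set at background), and the uncalled differences of *Trim12a* became −0.00 at 1 d and −0.03 at 4 d. With 1 array left out at a time, 7 to 8 genes were higher at 1 d, 4 to 6 higher at 4 d, 3 to 4 lower at 4 d than at 1 d, and 0 to 1 higher at 4 d than at 1 d (1 without LPS 1 d replicate 3, *Trim59*). Ordinary tests without moderation called 7 higher at 1 d and 4 at 4 d. The cause was not tested, apart from the choice of threshold or probe set itself.

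With the replicate number as a replicate block, 7 genes were higher and 1 lower at 1 d, 6 were higher at 4 d, 4 fell from 1 d to 4 d and 9 differed across the groups. *Trim34a* lost its call at 4 d (adjusted p = 0.0696) and *Trim14* gained one (0.00535). The numbers did not pair the arrays, since correlations of deviations from the group means were −0.0346 to 0.0216 over 9 same-number pairs, and 5 of 9 arrays correlated best with their own number. Differences from groups near background are compressed and limit what can be seen of the 17 members at that level.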
